A study of Mus musculus with 18 samples.

Results

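The genes described here encode enzymes that reduce carbonyl groups or that work with glutathione: Cbr2, Akr1c14, Gsto1, Gpx1 and Gpx3. They were taken as every probe set of the mouse expression array MOE430A that the platform annotation assigns to 1 of these symbols, which gave 6 probe sets for 5 of the 12393 genes with a probe set of a single symbol. Their signals in these arrays were known to differ between DES and oil, so their levels and differences are given as a description, with SDs and standard errors (SE) and without tests. The members were chosen by these DES minus oil differences. The tissues were 3 organs of newborn ICR mice, the oviduct, the uterus and the vagina, from which total RNA was measured. The analysis names of array 3 of each group give another age, counted in days post coitum. Whether those arrays came from newborns is not known. The mothers of all mice had been injected daily, from fetal day 10 to fetal day 18. They received either DES (diethylstilbestrol, a synthetic estrogen) at 67 µg per kg of body weight or oil, the vehicle. RNA came from 3 litters, and 1 µg of it was labelled for each array. There were 3 arrays for each of the 6 groups of organ and treatment, and nothing in the labels says whether the arrays of a group came from separate litters or from a pool. Errors and p-values therefore measure the spread between arrays, which may be technical.

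Carbonyl reductases and aldo-keto reductases use NADPH to turn aldehydes and ketones, including those of steroids, prostaglandins and products of lipid oxidation, into alcohols. Cbr2 is a tetrameric short-chain carbonyl reductase best known from mouse lung. Akr1c14 belongs to the aldo-keto reductase branch that includes the 3-alpha-hydroxysteroid dehydrogenases. Gsto1 is an omega-class glutathione transferase, whose active-site cysteine carries out thioltransferase and dehydroascorbate reductase reactions. Gpx1 and Gpx3 are selenocysteine-containing glutathione peroxidases that reduce hydrogen peroxide and organic hydroperoxides at the expense of glutathione. Gpx1 acts inside the cell, and Gpx3 is secreted and is the main form in plasma.

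The signal of each array was scaled so that its mean, with the lowest and highest 2% of probe sets left out, was 500. One array, DES vagina array 1, was of the older chip MG_U74Av2 and entered no comparison, so DES vagina had 2 arrays. The scanner had been run on 2 days, with arrays 1 and 2 on the first and array 3 on the second, and the analysis names of the second day also give another age than those of the first, so scan day and that age cannot be told apart. Because the file deposited for oil oviduct array 1 is a copy of the one for DES oviduct array 1, its signals were taken from the deposited value table, which has no detection calls. The record of DES oviduct array 3 names vagina as its sample type. Its 3 oviduct marker genes summed to 6007, against 2886 to 7809 on the other oviduct arrays and 233 to 545 on uterus and vagina arrays. Without it and oil oviduct array 1, left out together after the data were seen, the DES differences in oviduct were 4.38 for Cbr2, 4.14 for Akr1c14, 0.80 for Gsto1, 0.61 for Gpx1 and 0.56 for Gpx3, on the log2 scale used below.

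In GRCm38.p6, Cbr2 lies at chr11:120729485-120732025 and Akr1c14 at chr13:4048991-4090560. Gsto1 lies at chr19:47854973-47864790, Gpx1 at chr9:108339080-108340342 and Gpx3 at chr11:54902854-54910387. All are annotated as protein-coding. The promoters below, from 250 bases before to 50 bases after the RefSeq start, are those of the pair with the largest DES differences and of Gsto1. All come from RefSeq (GRCm38.p6), read 5′ to 3′ on the strand of the gene, and capitals mark a match to GGTCA, an arm of the estrogen response element. The start used for Akr1c14 lies inside the annotated span of the gene.
Cbr2, chr11:120731972-120732271, minus strand: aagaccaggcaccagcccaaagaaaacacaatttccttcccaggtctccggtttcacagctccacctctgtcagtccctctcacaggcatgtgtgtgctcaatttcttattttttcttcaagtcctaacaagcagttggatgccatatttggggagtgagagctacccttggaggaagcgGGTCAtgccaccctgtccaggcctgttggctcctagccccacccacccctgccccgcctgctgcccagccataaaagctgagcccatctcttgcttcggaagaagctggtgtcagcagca
Akr1c14, chr13:4059341-4059640, plus strand: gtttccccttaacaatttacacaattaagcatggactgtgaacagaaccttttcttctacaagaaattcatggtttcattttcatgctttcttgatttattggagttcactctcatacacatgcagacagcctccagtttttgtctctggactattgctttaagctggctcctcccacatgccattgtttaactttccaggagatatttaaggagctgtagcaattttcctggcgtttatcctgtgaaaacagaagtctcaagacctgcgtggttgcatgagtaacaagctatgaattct
Gsto1, chr19:47854723-47855022, plus strand: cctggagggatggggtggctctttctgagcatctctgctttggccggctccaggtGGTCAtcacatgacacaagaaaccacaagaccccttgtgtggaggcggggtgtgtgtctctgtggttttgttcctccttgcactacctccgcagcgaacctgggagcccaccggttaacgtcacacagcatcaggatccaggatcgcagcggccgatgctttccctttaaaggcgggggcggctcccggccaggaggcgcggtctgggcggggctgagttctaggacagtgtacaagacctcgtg
Each of the 5 promoters was searched on both strands for the palindromic estrogen response element (GGTCA, any 3 bases and the reverse complement of GGTCA), for its arm GGTCA alone, and for the antioxidant response element TGACNNNGC. GGTCA was found in the promoters of Cbr2, 70 bases before the start, and of Gsto1, 195 bases before it. The arm is common, in 40.5% of 32851 RefSeq promoters of the same length. The palindrome was in 0.07% of them and in 0 of these 5. The antioxidant response element was in 12.4% of them and in 0 of these 5. A match is a run of letters, and no binding was measured.

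Cbr2 had the widest range of the member genes. In oviduct the signal was 3802, 4089.9 and 4297 on the DES arrays (arrays 1, 2 and 3) and 236, 214 and 116 on the oil arrays. In uterus it was 12122, 10988 and 10933 with DES against 21.4, 29.0 and 103 with oil. In vagina it was 7866 and 6398 with DES (arrays 2 and 3) against 289, 368 and 807 with oil. No DES array overlapped an oil array in any organ. The oil uterus arrays 1 and 2 were called Absent, oil oviduct array 3 was called Marginal, and the other MOE430A arrays with calls were called Present. DES vagina array 1, on the older chip, read 141 and was called Absent, and its level cannot be set beside these.

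The DES minus oil difference of Cbr2, on the log2 scale of scaled signal plus 32, was 4.26 (SE 0.34) in oviduct, 7.22 (SE 0.34) in uterus and 3.91 (SE 0.38) in vagina. Ordered by size among the 9637 genes tested, they came at ranks 5, 2 and 3. The added 32 compresses differences from a low baseline: the ratio of mean signals in uterus was 222, while the fitted difference corresponds to 149-fold. Since 2 of the 3 oil uterus arrays were called Absent, both folds and the rank in uterus rest on a baseline that was mostly not detected. Their size is uncertain, as is that of the comparisons of uterus with other organs below. On the first scan day alone the differences were 3.95, 7.66 and 4.46, and on the second 4.87, 6.34 and 2.94. In oil, Cbr2 ran from vagina (488 ± 279, SD, n = 3) through oviduct (189 ± 64.0, n = 3) to uterus (51.2 ± 45.2, n = 3), with no overlap between neighbours. The steps of this order differed between scan days: oil oviduct minus oil uterus was 2.17 on the first day and 0.13 on the second, and oil oviduct minus oil vagina -0.48 and -2.51. Each second-day value rests on array 3 alone of each group, and on the first day both oil uterus arrays were called Absent. With DES the order was another, with uterus highest (11348 ± 671, n = 3), then vagina (7132 ± 1038, n = 2) and oviduct (4063 ± 249, n = 3), again without overlap. The organ with the lowest oil signal thus had the highest DES signal. The DES difference in uterus exceeded that in oviduct by 2.96 (SE 0.48), and the DES difference in vagina minus that in uterus was -3.32 (SE 0.51). Across scan days this excess over oviduct was 3.71 on the first and 1.47 on the second.

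Akr1c14 was also far above oil in every organ. In oviduct its signal was 3438, 3066 and 1549.9 with DES against 291, 239.8 and 95.5 with oil. In uterus it was 1859, 1713 and 1121 with DES against 80.1, 83.7 and 43.9 with oil. In vagina it was 1108 and 597 with DES against 96.0, 28.3 and 40.0 with oil. In every organ the lowest DES array was above the highest oil array, and array 3 had the lowest signal in 5 of the 6 groups, the exception being oil vagina. Oil vagina arrays 2 and 3 were called Absent and array 1 Marginal, and all other arrays with calls were Present. The difference was 3.52 (SE 0.39) in oviduct, 3.97 (SE 0.39) in uterus and 3.36 (SE 0.43) in vagina, at ranks 12 and 13 of 9637 in oviduct and uterus. Since no oil vagina array was called Present, vagina has a bound and no rank: DES was at least 9.56-fold higher than oil, with each oil array set to the lowest signal of its Present probe sets where it was below that. Within scan days it stayed near these values, at 3.47, 3.996 and 3.70 on the first and 3.63, 3.93 and 3.13 on the second. Unlike Cbr2, the group means had the same order with DES and with oil: oviduct was highest in both treatments (2685 ± 1000 with DES and 209 ± 102 with oil) and vagina lowest (852 ± 361 and 54.8 ± 36.2). The neighbours DES oviduct and DES uterus overlapped, as did oil uterus and oil vagina. Oil oviduct and oil vagina overlapped too, with 95.5 on oviduct array 3 and 96.0 on vagina array 1, so the order in oil was not separated throughout. The genes of the aldo-keto reductase cluster resemble each other in sequence, and whether relatives contribute to this probe set was not tested.

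**Figure D1:**
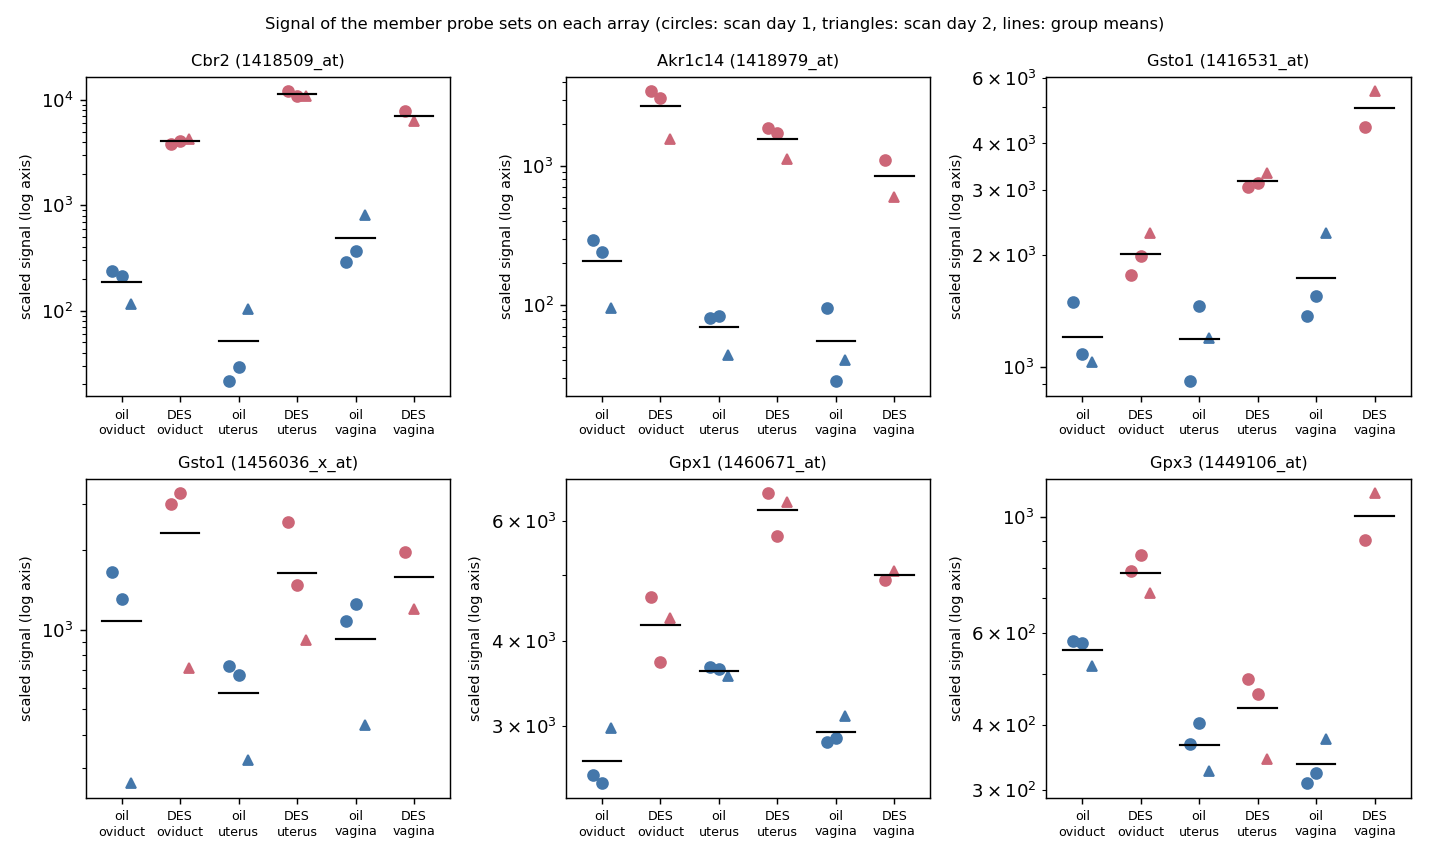
Scaled signal of each member probe set on every array, on log axes, in the 6 groups of organ and treatment; circles are the first scan day, triangles the second, and lines the group means. The DES arrays of Cbr2 lie between 3802 and 12122 and its oil arrays between 21.4 and 807, whereas the arrays of Gpx3 in DES and oil uterus overlap.

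Gsto1 had 2 probe sets. On 1416531_at, which has the higher mean signal and stands for the gene, oviduct read 1767, 1988 and 2298 with DES against 1501, 1089 and 1032 with oil. Uterus read 3056, 3129.9 and 3327 with DES against 917, 1462 and 1200.4 with oil. Vagina read 4418 and 5525 with DES against 1372, 1557 and 2304 with oil. DES and oil did not overlap within an organ, and all arrays with calls were Present. The difference was 0.74 (SE 0.20) in oviduct, 1.41 (SE 0.20) in uterus and 1.52 (SE 0.23) in vagina. With DES the organs were ordered from vagina through uterus to oviduct without overlap, while the 3 oil groups overlapped with their neighbours. DES oviduct, the lowest DES group (2018 ± 267, n = 3), overlapped oil vagina (1744 ± 493, n = 3).

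The other probe set of Gsto1, 1456036_x_at, has a suffix that Affymetrix gives to probe sets that may detect other sequences. It was lowest on array 3 in each of the 6 groups. Its signal ranged from 261 to 1197 on the 6 arrays of the second scan day and from 674 to 3287 on the 11 arrays of the first day. On 1416531_at the corresponding ranges were 1032 to 5525 and 917 to 4418, which overlap broadly. DES was higher than oil on 1456036_x_at by 1.17 (SE 0.64) in oviduct, 1.43 (SE 0.64) in uterus and 0.84 (SE 0.71) in vagina, and the arrays overlapped in oviduct and vagina. Within scan days the differences of this probe set were 1.08, 1.43 and 0.75 on the first day and 1.35, 1.42 and 1.39 on the second. Both probe sets thus had DES above oil on each day, while the order of organs with DES was not shared: on 1456036_x_at the DES groups overlapped.

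**Figure D2:**
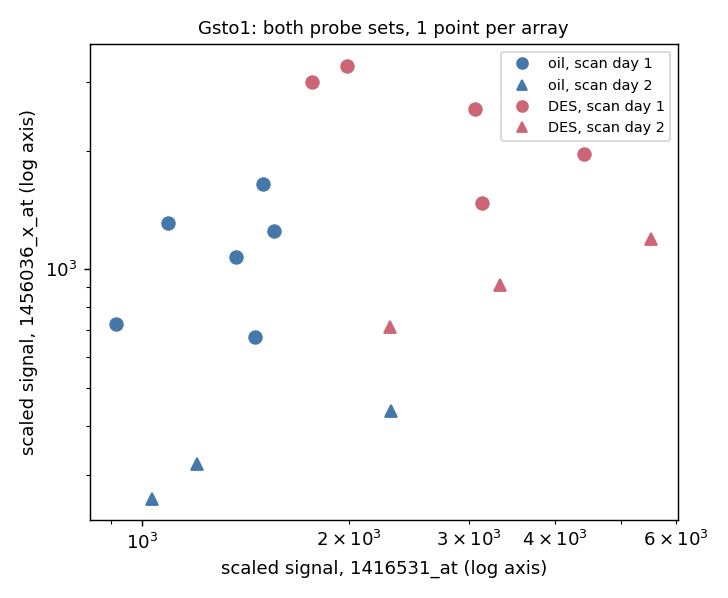
Scaled signal of 1456036_x_at against that of 1416531_at, both for Gsto1 and on log axes, with 1 point per array, coloured by treatment and shaped by scan day. The 6 arrays of the second scan day lie between 261 and 1197 on the vertical axis, below most of the first-day arrays, while on the horizontal axis the days overlap.

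Gpx1 had smaller differences and tight groups. Its signal in oviduct was 4638, 3724 and 4316 with DES against 2548, 2476 and 2986 with oil. In uterus it was 6577, 5702 and 6387 with DES against 3670.3, 3639.9 and 3551 with oil. In vagina it was 4914 and 5060.2 with DES against 2843, 2888 and 3105 with oil. DES and oil did not overlap in any organ, and all arrays with calls were Present. The difference was 0.66 (SE 0.11) in oviduct, 0.77 (SE 0.11) in uterus and 0.75 (SE 0.13) in vagina, or 1.58-fold, 1.71-fold and 1.69-fold. The differences between organs in these DES effects were 0.12 (SE 0.16) for uterus minus oviduct, -0.02 (SE 0.17) for vagina minus uterus and 0.10 (SE 0.17) for vagina minus oviduct. Uterus had the highest level in both treatments, at 3621 ± 61.8 with oil (n = 3) and 6222 ± 460.2 with DES (n = 3), without overlap with the next organ. Oil vagina and oil oviduct overlapped.

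Gpx3 differed from the other members in its organ pattern. Its signal in vagina was 904 and 1112 with DES against 309, 322 and 376 with oil, a difference of 1.50 (SE 0.18). In oviduct it was 789, 845 and 714 with DES against 578, 575 and 518 with oil, a difference of 0.47 (SE 0.16). In uterus it was 490, 457 and 343 with DES against 367, 402 and 326 with oil, a difference of 0.21 (SE 0.16), and the arrays overlapped. The DES effect in vagina exceeded that in uterus by 1.29 (SE 0.24) and that in oviduct by 1.03 (SE 0.24). These excesses were 1.15 and 0.95 on the first scan day and 1.42 and 1.05 on the second. In oil, oviduct was highest (557 ± 34.0, n = 3), above uterus (365 ± 38.0, n = 3) and vagina (336 ± 35.6, n = 3), which overlapped. Detection set a limit here: DES uterus arrays 1 and 2, and arrays 1 and 2 of oil uterus and oil vagina with oil oviduct array 2, were called Absent, whereas every array of the second scan day was called Present.

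**Figure D3:**
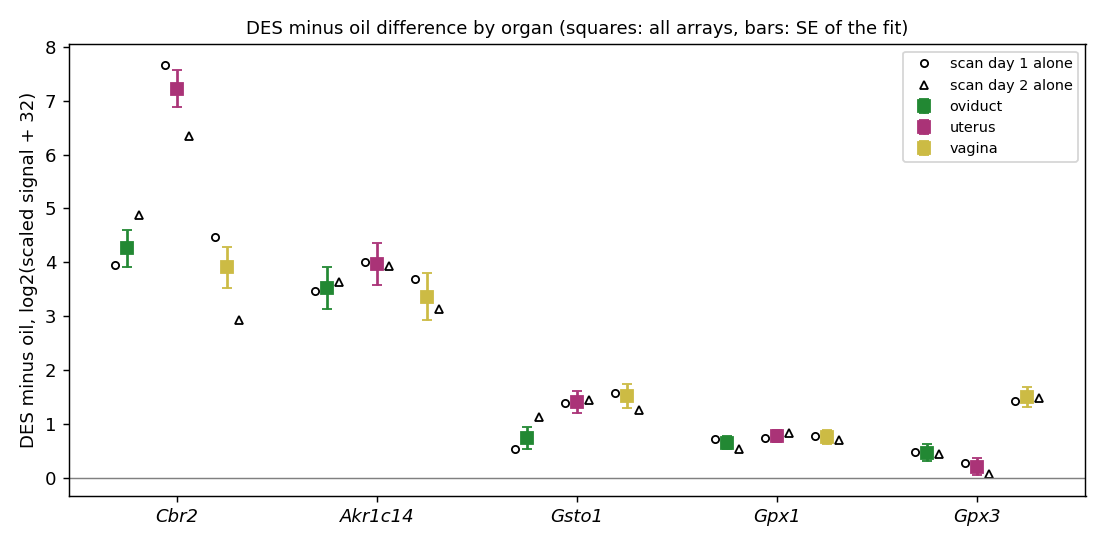
DES minus oil difference of each member on the scale of log2 of scaled signal plus 32, by organ; squares are all arrays, bars the SE of the fit, and open symbols each scan day alone. Cbr2 in uterus stands at 7.22, Gpx1 between 0.66 and 0.77 in all 3 organs, and Gpx3 at 1.50 in vagina against 0.21 in uterus.

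Without a test, the overlap of arrays describes the members together. All 5 were higher with DES without overlap in oviduct, where 12.1% of the 9637 genes tested were. In uterus 4 of 5 were, with 12.5% of all genes, and in vagina 5 of 5, with 13.1%. In all 3 organs 4 of 5 were, with 3.27% of all genes. Because the members had been chosen for these differences, nothing is read from the counts. Across the 17 arrays, Pearson's r between members ran from 0.25 for Gpx1 with Gpx3 to 0.87 for Cbr2 with Gsto1. The points share organs, treatments and scan days.

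Bulk RNA cannot tell apart more cells of a type from more RNA per cell. The summed signal of 9 epithelial genes, such as Epcam and Cdh1, was 23729 to 28539 on DES oviduct arrays against 12859 to 17091 on oil oviduct arrays. It was 23985 to 32185 against 14063 to 16848 in uterus and 30130 to 36082 against 21659 to 29599 in vagina. The limma test called 5 of the 9 higher in oviduct, 5 in uterus, and 2 higher and 1 lower in vagina. The 9 mesenchymal genes summed to 111464 to 119791 with DES against 72890 to 81900 with oil in uterus. In vagina they summed to 110969 to 117362 against 75657 to 95878, and in oviduct the sums overlapped. Of them, 3 were called higher and 1 lower in uterus, and 1 higher in each other organ. Sums of 11 macrophage and leukocyte genes were 5260 to 6296 against 6728 to 8057 in oviduct, and higher with DES in uterus and vagina. Of these 11, only Tyrobp was called in oviduct, where it was lower, and only Lyz2 in vagina, where it was higher. In uterus 0 were called. The 6 ciliated cell genes summed to 7779 to 9673 on DES oviduct arrays and to 700.3 to 776 on oil oviduct arrays, with all 6 called higher, and to 527 to 1694 on all uterus and vagina arrays. The 8 erythroid genes summed to 2946 to 8648 on DES arrays and 1116 to 2735 on oil arrays. Of the 4 that were tested, only Car2, a carbonic anhydrase that many other cells also make, rose in each organ (log2 3.08, 2.79 and 1.65 in oviduct, uterus and vagina, adjusted p = 5.36e-06, 1.27e-05 and 0.0136). Alas2, Slc4a1 and Klf1 did not pass in any organ, and the alpha-globin genes Hba-a1 and Hba-x were Present on 0 arrays in every group. The 7 ovary and germ cell genes summed to 228 to 573 on DES oviduct arrays and 1331 to 3505 on oil oviduct arrays, with 3 of 5 tested called lower. In uterus 1 of these 5, Ddx4, was called higher, and in vagina none passed. Of the 4 mesothelial genes, 3 were called lower in oviduct. In uterus 2 were called lower and Krt19 higher, while Krt19 was the 1 called in vagina, where it was higher. The 4 adipocyte genes summed to 3827 to 3948 with DES against 1472 to 3286 with oil in vagina, and overlapped in the other organs. Of the 3 tested, Fabp4 was called higher in oviduct, Car3 lower in uterus and Lpl higher in vagina. Of 5 kidney and mesonephric tubule genes tested, only Umod was called, higher in oviduct. The 12 skeletal muscle genes summed to 4744, 12178 and 13660 on oil oviduct arrays 1 and 3 and oil uterus array 3. On the other oviduct and uterus arrays they summed to 675 to 1703. In vagina they summed to 26880 and 34145 with DES against 6415 to 23317 with oil, without overlap, and 0 of 12 were called. Leaving out oil oviduct arrays 1 and 3 and oil uterus array 3 was a step chosen after the data were seen. It left 1 oil oviduct array and 2 oil uterus arrays, with the spread estimated from the other groups. The DES difference of Cbr2 was then 4.06 in oviduct and 7.64 in uterus, and that of Akr1c14 was 3.24 and 3.78. The part of epithelial, mesenchymal, ciliated, germ, mesothelial or skeletal muscle cells, of adipocytes, tubule cells or leukocytes in the member differences was not tested.

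The other genes of these pathways came from 8 lists with 127 genes on the array, of which 104 passed the filter of a Present call on at least 2 arrays. They were tested with limma on the whole table, with Benjamini-Hochberg adjustment and a threshold of 0.05. The lists were drawn up with earlier results of these data known. Shares of called list genes beside those of all genes, here and below, are therefore a description, and no excess is read from them. In oviduct 15 rose and 7 fell with DES, or 21.2% of the list genes, where 9.44% of all genes tested were called. In uterus 13 rose and 1 fell, or 13.5% against 9.87% of all genes. In vagina 4 rose and 1 fell, or 4.81% against 2.68%. A block for scan day raised these to 23 and 9, 23 and 4, and 11 and 2 higher and lower genes. The oviduct count of 22 fell to 14 without oil oviduct array 2. It was 8 without the 3 oil arrays with muscle transcripts, where 1 oil oviduct array stands for its group. All 22 genes then kept their direction, with log2 changes at 75.5% to 134.9% of those with all arrays. The vagina count of 5 became 3 without DES vagina array 2 or oil vagina array 1, and 2 without DES vagina array 3 or oil vagina array 2. Leaving out a DES vagina array leaves 1 in that group, which is then assumed to vary like the others. The median log2 change over the lists was 0.07, 0.10 and 0.06 in oviduct, uterus and vagina, beside -0.06, -0.05 and -0.02 over all genes.

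A group of 3 list genes rose in all 3 organs. Hsd17b11, a short-chain dehydrogenase of lipid droplets, rose from 2275 ± 114 to 5590 ± 525 in oviduct, a log2 change of 1.28 (adjusted p = 4.87e-06). It rose from 1994 ± 95.7 to 7397 ± 935 in uterus, by 1.87 (adjusted p = 4.78e-08), and from 1649.8 ± 184 to 5279.7 ± 582 in vagina, by 1.66 (adjusted p = 3.28e-06). Dio2, the selenoenzyme that activates thyroxine, rose by 1.38 in oviduct (adjusted p = 0.000773), by 3.38 in uterus (adjusted p = 4.91e-08) and by 2.53 in vagina (adjusted p = 1.8e-05). Hsd11b2, which inactivates glucocorticoids, rose by 1.33 (adjusted p = 0.000435), 2.05 (adjusted p = 6.35e-06) and 1.09 (adjusted p = 0.0161) in the same order. The call of Hsd11b2 in vagina was lost without DES vagina array 2 or 3 or oil vagina array 2, with an adjusted p of up to 0.201, and its log2 change ran from 1.01 to 1.21 as each array was left out in turn. The calls of Hsd17b11 and Dio2 in each organ, and of Hsd11b2 in oviduct and uterus, passed under all 31 alternatives tried. The remaining hydroxysteroid dehydrogenases tested did not pass in any organ. Among them Hsd17b10, a mitochondrial short-chain dehydrogenase, had log2 changes of -0.04, 0.09 and 0.27, and Hsd17b12, a reductase of fatty acid elongation, had -0.17, -0.13 and -0.12.

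The relatives of Cbr2 and Akr1c14 rose in part. Of 17 carbonyl and aldo-keto reductases tested, 4 rose in oviduct, 3 rose and 1 fell in uterus, and 1 rose in vagina. Dcxr, the reductase of diacetyl and L-xylulose, rose from 851 ± 31.5 to 1823 ± 259.8 in oviduct (log2 1.06, adjusted p = 0.00219) and from 555 ± 111 to 1229 ± 244 in uterus (log2 1.10, adjusted p = 0.00145). With 1 oil oviduct array, the 3 oil arrays with muscle transcripts being left out, Dcxr in oviduct had a log2 change of 1.003 (adjusted p = 0.101) and Cbr3 of 0.83 (adjusted p = 0.271). Cbr3, a monomeric carbonyl reductase, rose from 238 ± 50.1 to 916 ± 177 in uterus (log2 1.81, adjusted p = 5.72e-05). In oviduct Cbr3 rose by 0.97 (adjusted p = 0.0127), a call lost without array 3 of DES or of oil oviduct (adjusted p up to 0.0639). Cbr1, its close homologue, rose by 0.56 in oviduct (adjusted p = 0.0442), and this call was lost when any 1 of 12 arrays was left out (adjusted p up to 0.185). Nqo1, the quinone reductase, fell in uterus by 0.94 on the log2 scale, from 406 ± 60.3 to 197 ± 44.6 (adjusted p = 0.0366). That call was lost without DES uterus array 1 or 3 or oil uterus array 1 or 2 (adjusted p up to 0.139). Akr1a1, an aldehyde reductase with the highest mean signal of the list, had log2 changes of 0.12, -0.10 and 0.00. Akr7a5, another aldo-keto reductase, had 0.08, -0.47 and 0.24, of which the change in uterus passed with scan day as a block (adjusted p = 0.0448).

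None of the 3 other glutathione peroxidases tested with limma passed in any organ, also with scan day as a block, and 0 of 3 had an unadjusted p under 0.05. Gpx4, which reduces lipid hydroperoxides in membranes, had log2 changes of 0.30 (adjusted p = 0.427), 0.07 (adjusted p = 0.9) and -0.03 (adjusted p = 0.985). Gpx8, a peroxidase of the endoplasmic reticulum, had -0.16, -0.21 and 0.20 (adjusted p = 0.734, 0.568 and 0.814). Gpx4 in oviduct passed under 2 of the 31 alternatives, with an adjusted p between 0.0317 and 0.956.

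Of 18 glutathione transferases, 3 rose and 1 fell in oviduct, 2 rose in uterus and 1 fell in vagina. Hpgds, the glutathione-dependent prostaglandin D synthase, rose from 90.7 ± 58.4 to 849 ± 94.2 in oviduct (log2 2.94, adjusted p = 0.000211). With the 1 oil oviduct array free of muscle transcripts, its log2 change in oviduct was 2.22 (adjusted p = 0.0573), and that of Gstt2 below was 1.24 (adjusted p = 0.0751). In uterus Hpgds was Absent on all oil arrays, with a mean of 35.3, and read 176 with DES, at least 2.74-fold higher than the lowest signal of Present probe sets (adjusted p = 0.0138). This call was lost without DES uterus array 3 or oil uterus array 1 (adjusted p up to 0.0842). Gstt2, a theta-class transferase, rose by 1.04 in oviduct (adjusted p = 0.0077), and Gsta4, the transferase of 4-hydroxynonenal, by 0.77 (adjusted p = 0.0114). The call of Gsta4 was lost without DES oviduct array 3 or oil oviduct array 2 (adjusted p up to 0.0606). The mu-class Gstm7 fell by 1.07 (adjusted p = 0.0286), a call lost without any 1 of DES oviduct arrays 1, 2 and 3 or oil oviduct arrays 1 and 2 (adjusted p up to 0.166). Mgst3, a microsomal transferase, rose by 0.69 in uterus (adjusted p = 0.0299), and this call was lost without DES uterus array 1 or 2 or oil uterus array 1 or 3 (adjusted p up to 0.138). Mgst1, a microsomal transferase of the endoplasmic reticulum and mitochondria, fell in vagina from 4133 ± 51.4 to 2553 ± 505 (log2 -0.70, adjusted p = 0.0181), lost without DES vagina array 3 or oil vagina array 1 or 2 (adjusted p up to 0.301). Gstp1, the pi-class transferase, had log2 changes of 0.19, 0.26 and 0.23 that did not pass (adjusted p = 0.674, 0.485 and 0.779).

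**Figure D4:**
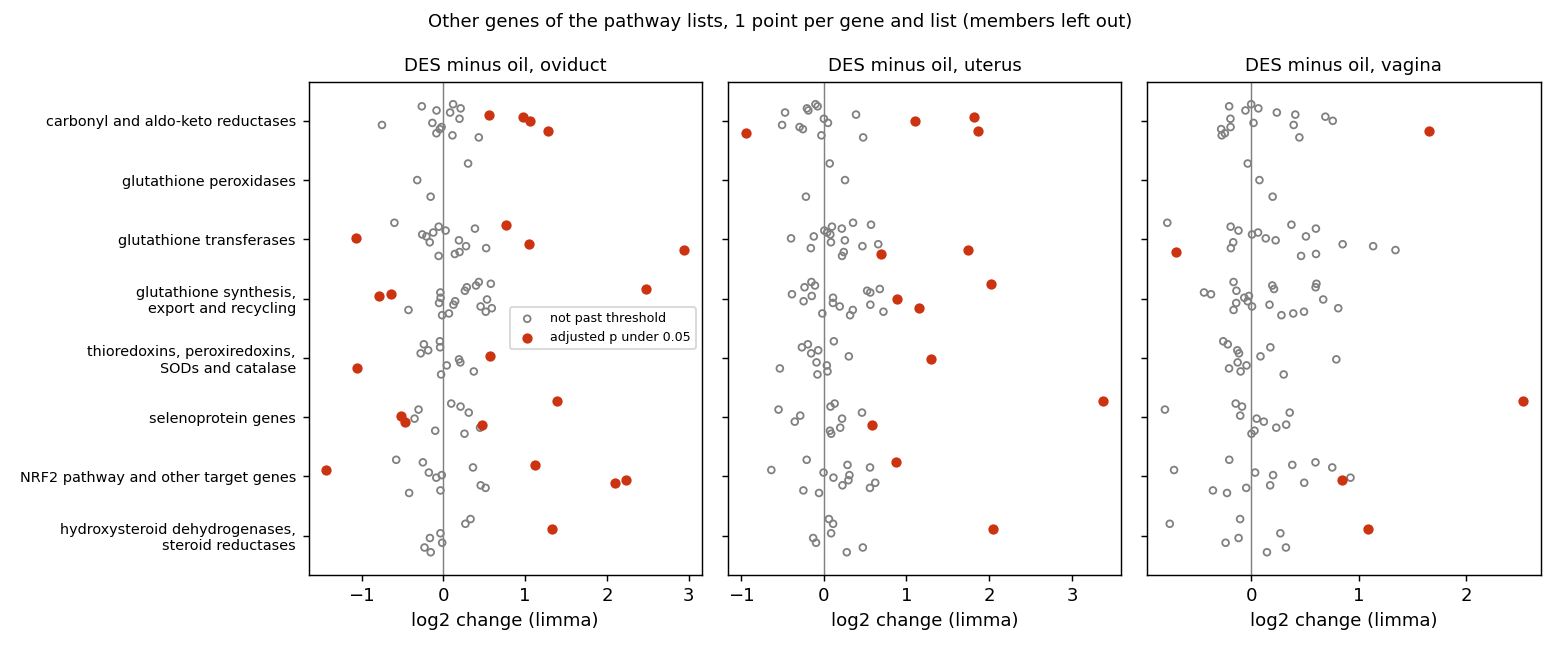
Log2 change with DES (limma) of the other genes of the 8 pathway lists in each organ, with 1 point per gene; filled points passed an adjusted p of 0.05. Filled points are 22 in oviduct, 14 in uterus and 5 in vagina, of which 15, 13 and 4 lie to the right of 0.

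Glutathione synthesis and recycling genes were called in oviduct and uterus, and none of the 20 tested in vagina, where 2 had an unadjusted p under 0.05 and 1 passed with scan day as a block. Gclc, the catalytic subunit of the rate-limiting enzyme of glutathione synthesis, rose from 287 ± 115 to 1703 ± 401 in oviduct (log2 2.47, adjusted p = 2.81e-06). Glo1, a glyoxalase that uses glutathione, fell there from 2839.6 ± 439.9 to 1791 ± 56.8 (adjusted p = 0.023), and Glrx, a glutaredoxin, fell from 371 ± 21.3 to 201 ± 17.9 (adjusted p = 0.00706). The call of Glo1 was lost without any 1 of DES oviduct arrays 1, 2 and 3 or oil oviduct arrays 2 and 3 (adjusted p up to 0.112). With the 1 oil oviduct array free of muscle transcripts, Glrx had a log2 change of -0.87 (adjusted p = 0.103), beside -0.79 with all 3. In uterus Anpep, an aminopeptidase that acts on extracellular products of glutathione, rose from 77.9 ± 52.0 to 389 ± 98.2 (log2 2.02, adjusted p = 0.000528). Gsr, which regenerates glutathione from its disulfide, rose from 617 ± 44.0 to 1183 ± 243 (log2 0.89, adjusted p = 0.00334). Me1, a cytosolic source of NADPH, rose by 1.15 (adjusted p = 0.0186), lost without DES uterus array 1 or 2 or oil uterus array 3 (adjusted p up to 0.0813). Idh1, another source of NADPH, had log2 changes of 0.12, 0.56 and 0.17 that did not pass (adjusted p = 0.815, 0.0601 and 0.857). With scan day as a block Idh1 in uterus passed (adjusted p = 0.023).

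Of the thioredoxin and superoxide dismutase list, 1 rose and 1 fell in oviduct, and 1 rose in uterus, of 12 tested. Srxn1, which repairs oxidised peroxiredoxins, rose in uterus from 98.8 ± 41.6 to 279 ± 14.2 (log2 1.30, adjusted p = 0.00496). Sod2, the mitochondrial superoxide dismutase, rose in oviduct by 0.56 (adjusted p = 0.0238), and Txnip, which binds thioredoxin, fell there by 1.05 (adjusted p = 0.0384). The call of Sod2 was lost without any 1 of DES oviduct arrays 1, 2 and 3 or oil oviduct arrays 2 and 3 (adjusted p up to 0.0937), and that of Txnip without any 1 of 8 arrays (adjusted p up to 0.181). Txn1, thioredoxin itself, had log2 changes of 0.21, -0.09 and -0.13, and none passed. Prdx2, a peroxiredoxin abundant in red cells, had -0.24, -0.19 and -0.22, and none passed.

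Besides Dio2, 1 selenoprotein gene rose and 2 fell in oviduct and 1 rose in uterus, of 12 tested with Dio2. Selenos, of the endoplasmic reticulum, rose in uterus from 1191 ± 72.3 to 1796 ± 144 (log2 0.58, adjusted p = 0.00416) and in oviduct by 0.47 (adjusted p = 0.0187). The oviduct call was lost without DES or oil oviduct array 1 or 2 (adjusted p up to 0.0802). Selenop, the plasma selenium carrier, fell in oviduct from 6600 ± 1029 to 4728 ± 160 (adjusted p = 0.0278). Selenop no longer passed when DES oviduct array 1, 2 or 3 or oil oviduct array 1 or 2 was left out (adjusted p up to 0.137). In uterus it passed with scan day as a block and not without (adjusted p = 0.0278 and 0.106). Selenom fell there from 1688 ± 165 to 1161 ± 74.0 (adjusted p = 0.0104), lost without oil oviduct array 3 (adjusted p = 0.0551). Selenow, with the highest mean signal of the list, had log2 changes of -0.10, 0.08 and 0.03, and none passed.

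Of 14 genes of the NRF2 pathway and other target genes, 3 rose and 1 fell in oviduct, 1 rose in uterus and 1 in vagina. The metallothioneins Mt1 and Mt2, which bind zinc and copper, rose in oviduct from 910.1 ± 61.2 to 4498 ± 1145 (log2 2.24, adjusted p = 3.68e-07) and from 1269.7 ± 282 to 5480.0 ± 466 (log2 2.10, adjusted p = 2.64e-06). Mt1 rose in vagina by 0.84 (adjusted p = 0.0271), a call lost without any 1 of the DES vagina arrays 2 and 3 or of the 3 oil vagina arrays (adjusted p up to 0.266). Ephx1, the microsomal epoxide hydrolase, rose in oviduct from 533 ± 99.0 to 1179 ± 60.7 (log2 1.11, adjusted p = 0.0027). With the 1 oil oviduct array free of muscle transcripts its log2 change was 0.85 (adjusted p = 0.174). Hmox1, heme oxygenase, fell in oviduct from 466 ± 40.0 to 153 ± 28.1 (log2 -1.43, adjusted p = 0.000679). Blvrb, a biliverdin reductase, rose by 0.88 in uterus (adjusted p = 0.0449), lost when any 1 of 11 arrays was left out (adjusted p up to 0.219). Fth1, the ferritin heavy chain, had log2 changes of 0.36, 0.56 and 0.76 that did not pass (adjusted p = 0.452, 0.166 and 0.187). With scan day as a block they passed (adjusted p = 0.0387, 0.0019 and 0.00311), and in uterus also on the first scan day alone (adjusted p = 0.00575).

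The size of the DES change itself was compared between organs with the interaction contrasts of the limma fit. Of the 104 list genes, 4 differed between uterus and oviduct (3.85%, with 1.74% of all genes called) and 4 between vagina and oviduct (3.85%, with 1.68%). Between vagina and uterus 0 differed, 1 with scan day as a block, and 7 at an unadjusted p under 0.05, with 0.311% of all genes called. Gclc had log2 changes of 0.68 in uterus, from 336 ± 40.1 to 562 ± 116, and 0.21 in vagina, from 535 ± 38.6 to 626 ± 54.6. Its change in uterus minus that in oviduct was -1.80 (adjusted p = 0.00857), and in vagina minus oviduct -2.26 (adjusted p = 0.00223). Without DES oviduct array 1 and oil oviduct array 1 together, the first of these did not pass (adjusted p = 0.0793). Ciliated cell genes rose in oviduct as given above, and their part in the change of Gclc was not tested.

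Among oil organs, the 3 list genes that differed between oviduct and uterus were the mu-class glutathione transferases Gstm1, Gstm2 and Gstm7. Of the 104 list genes, 3 were higher in oviduct than in uterus (2.88%, with 1.83% of all genes called), 2 were higher and 3 lower in uterus than in vagina (4.81%, with 4.52%), and 6 were higher and 1 lower in oviduct than in vagina (6.73%, with 4.70%). Gstm2 stood at 2174 ± 57.1 in oviduct, 1063 ± 62.4 in uterus and 634 ± 91.0 in vagina, and each step passed (adjusted p = 0.000379 and 0.00322). Gstm1 stood at 1824 ± 265, 972 ± 76.7 and 808 ± 81.8, and was higher in oviduct than in uterus (adjusted p = 0.00268) and vagina (adjusted p = 0.000107). Gstm7 stood at 522 ± 253, 166 ± 48.9 and 90.6 ± 19.7, with adjusted p = 0.0159 and 0.000229 for the same pairs. Without the 3 oil arrays with muscle transcripts, which leaves 1 oviduct and 2 uterus arrays, the oviduct minus uterus differences were 1.04 for Gstm1 (adjusted p = 0.0665), 1.004 for Gstm2 (adjusted p = 0.0856) and 1.16 for Gstm7 (adjusted p = 0.374). With all arrays they were 0.88, 1.01 and 1.42. The call of Gstm7 for this pair was also lost without oil oviduct array 1, oil uterus array 1 or oil uterus array 3 (adjusted p up to 0.0985). These genes resemble each other in sequence, and their probe sets may share targets. Selenop was higher in uterus than in vagina by 0.70 (adjusted p = 0.00282). Ptgr1, an NADPH-dependent prostaglandin reductase, was lower in uterus than in vagina by 1.02 on the log2 scale (adjusted p = 0.0101), lost without oil uterus array 3 or oil vagina array 3 (adjusted p up to 0.0554). Gsta4 and Mgst3 were lower there too (log2 -0.75 and -0.71, adjusted p = 0.0209 and 0.0449), with adjusted p of up to 0.123 without any 1 of oil uterus arrays 1 and 2 and oil vagina arrays 2 and 3 for Gsta4, and of up to 0.18 without any 1 of 12 arrays for Mgst3. Gclc was lower in oviduct than in vagina by 0.89 (adjusted p = 0.0365), lost without oil oviduct array 1 or 2 or any oil vagina array (adjusted p up to 0.183).

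The genes whose signal ran most like each member over the 17 arrays were named by Pearson's r on the log2 scale, among 9636 genes. For Cbr2 they were Klf4, a zinc-finger factor of epithelia (r = 0.97), Ahcyl2, Lcn2, which encodes an iron-carrier binding protein, Smad1 and Elf3 (r = 0.96 for each of these). Klf4 itself read 205 in oil oviduct, 171 in oil uterus and 424 in oil vagina, against 1355, 2105 and 2005 with DES. For Akr1c14 they were Il4ra (0.96), Cldn10 (0.96), Ampd3 (0.96), H1f2 (0.96) and the alcohol dehydrogenase Adh1 (0.94). For Gsto1 they were Smoc2 (0.94), Ank (0.94), Zdhhc14 (0.93), the keratin Krt7 (0.92) and Fxyd3 (0.92). For Gpx1 they were Pcolce2 (0.92), Prap1 (0.91), Dio2 (0.90), Hsd11b2 (0.90) and Cope (0.89). For Gpx3 the values were lower, with Fbxw9, Gas6 and Vwa5a at 0.80, Ak1 at 0.78 and the theta-class transferase Gstt3 at 0.78. The arrays of a group share organ and treatment, and may share litters, so these values are a description and carry no test.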

How the data were processed

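Total RNA of 18 samples was hybridised to Affymetrix mouse arrays, 17 of the type MOE430A and 1 of the type MG_U74Av2. The deposited per-array files hold, per the file headers, a linear signal intensity, a detection call and a detection p-value for each probe set; neither labels nor headers state the software version or its scaling and background steps. Detection p-values were not used beyond the calls. Intensities differed from the deposited value table by at most 0.05, except for oil oviduct array 1. The precision is limited by the number of arrays, 2 or 3 a group.

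Control probe sets (64) were left out, each array was scaled to a mean of 500 with 2% trimmed at each end, and log2 of scaled signal plus 32 was taken. Fold changes on this scale understate changes of low genes. Probe sets Present on at least 2 of 16 arrays with calls were kept (16702 probe sets, 9637 genes, with the probe set of highest mean log2 signal standing for a gene). A linear model with 1 mean per group (limma 3.58.1, R 4.3.3; lmFit, eBayes with variance trend; 11 residual degrees of freedom and 5.81 prior ones) was used, with Benjamini-Hochberg adjustment over all probe sets and a threshold of 0.05. On simulated data, with 100 probe sets changed by each size, log2 changes of 1 and 2 were called for 50% and 90% in oviduct, 55% and 90% in uterus and 37% and 82% in vagina. Figures were drawn with matplotlib 3.10.9.

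Of 22626 probe sets, 20380 had 1 symbol, 691 several and 1555 none. The members and lists were chosen with earlier results of these data known. Genes were named by rule: every member; from each list and DES comparison up to 4 genes past the threshold with the largest changes and 2 others with the highest mean signal; for oil organ pairs up to 3 genes in each direction; and the 5 genes most like each member. Replicate numbers were shared by the groups. Deviations from group means correlated at a median of 0.29 between arrays of the same number (40 pairs, lowest 0.09), 0.24 between numbers scanned on the same day (25 pairs) and -0.34 across days (55 pairs), so the scan day was taken as the batch and numbers were not taken as pairs. The main fit held no term for scan day, which entered as a block in an alternative only. Alternatives covered normalization, the added constant, the filter, the source of the signals, the samples fitted, the variance trend, blocks, scan days and arrays left out. Protein sequences were not used here.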

Additional observations from a re-analysis of the deposited data

Results flagged for a closer look

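The DES change differed between organs for 8 pairs of gene and organ comparison among the list genes, by the interaction contrasts of limma with adjustment over all probe sets. Values are differences of log2 changes. Between uterus and oviduct, the rise of Dio2 was larger in uterus by 1.99 (adjusted p = 0.00445). The changes of Gclc (-1.80, adjusted p = 0.00857), Mt1 (-1.94, adjusted p = 0.000612) and Mt2 (-1.48, adjusted p = 0.00986) were smaller in uterus than in oviduct. Between vagina and oviduct, the changes were lower in vagina for Gclc (-2.26, adjusted p = 0.00223), Mt2 (-1.61, adjusted p = 0.00802), Mt1 (-1.39, adjusted p = 0.0104) and Mgst1 (-0.90, adjusted p = 0.035). Mt1 in vagina against oviduct was not called without DES vagina array 2 (adjusted p = 0.0777), nor Mt2 without DES vagina array 3 (adjusted p = 0.0733). Mgst1 was not called when any 1 of 10 arrays was left out (adjusted p up to 0.264). Leaving out the 3 oil arrays with muscle transcripts leaves 1 oil oviduct array. The vagina minus oviduct differences were then -2.58 for Gclc, -1.71 for Mt2, -1.29 for Mt1 and -0.70 for Mgst1. The comparisons with oviduct share the oviduct arrays, and all 8 passed with scan day as a block. The 6 ciliated cell genes rose in DES oviduct too, and 0 of 6 were called in uterus or vagina. Mt1 also rose in vagina. The part of ciliated cells in these differences was not tested.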

How the results depend on the processing

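Under the alternatives, all 298 recomputed DES minus oil differences of the members had DES above oil, and 9 moved by at least 1 replicate SD. The members had been chosen for these differences and the alternatives share arrays, so nothing is read from the shared direction. Adding 1 in place of 32 gave 8.10 for Cbr2 in uterus and 4.06 for Akr1c14 in vagina, and adding 100 gave 6.28 for Cbr2 in uterus and 3.28 and 2.59 for Akr1c14 in uterus and vagina. Akr1c14 in oviduct was 4.14 without DES oviduct array 3 and oil oviduct array 1, and Cbr2 in vagina 4.46 on the first scan day. The other probe set of Gsto1 gave 1.17 in oviduct and 0.84 in vagina. Among oil organ pairs, the difference of Gsto1 between oviduct and uterus (0.02) ran from -0.15 to 0.18 when 1 array was left out, and that of Cbr2 for the same pair (1.49) was 2.17 on the first scan day, 2.14 and 0.95 with 1 and 100 added, and 2.11 without the oil arrays with muscle transcripts. The difference of Cbr2 between oil oviduct and oil vagina (-1.16) was -0.48 on the first day. Leaving out 1 array of the groups compared kept the DES differences of Cbr2 between 3.99 and 4.42 in oviduct, 6.97 and 7.64 in uterus, and 3.62 and 4.31 in vagina.

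Counts of list genes moved by over 1.5 times as follows. With scan day as a block they were 27 in uterus, 13 in vagina, 7 for oil oviduct minus uterus, 10 for oil uterus minus vagina, 15 for oil oviduct minus vagina, and, for the difference of DES changes, 7 for vagina minus oviduct and 1 for vagina minus uterus. With a replicate block, although the numbers were not taken as pairs, they were 24 in uterus, 12 in vagina, 5, 10 and 15 for the same oil pairs, and 1 for vagina minus uterus. On the first scan day they were 8 in vagina, 7 and 12 for oil oviduct minus uterus and minus vagina, and 7 for the difference of DES changes in uterus minus oviduct. Fitting only the groups compared gave 2 in vagina and 2 for oil uterus minus vagina, and no variance trend gave 3 in vagina. Without DES oviduct array 1 and oil oviduct array 1 the counts were 11 in oviduct, 4 for oil oviduct minus vagina and 2 for vagina minus oviduct. Without DES oviduct array 3 and oil oviduct array 1 they were 12, 4 and 2, and without the 3 oil arrays with muscle transcripts 8 in oviduct, 0 for oil oviduct minus uterus and 2 for vagina minus oviduct (both settings chosen after seeing the data). Leaving out 1 array at a time gave 14 to 24 in oviduct, 10 to 16 in uterus, 2 to 6 in vagina, 2 to 4 for oil oviduct minus uterus, 2 to 5 for oil uterus minus vagina and 4 to 8 for oil oviduct minus vagina, and 4 to 6, 2 to 4 and 0 to 1 for the differences of DES changes in uterus minus oviduct, vagina minus oviduct and vagina minus uterus. The cause was not tested. Quantile normalization, another added constant, either filter and the value table kept every count within 1.5 times. No member group was Absent on all arrays.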

Other observations

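DES vagina array 1 was measured on the chip MG_U74Av2, whose probe sets differ from those of MOE430A, so its levels cannot be set beside the other arrays. Of the 5 members, 4 had a probe set there, and Akr1c14 was not analysed on it. Scaled in the same way, the signal of Gsto1 was 4696, that of Gpx3 1190.1 and that of Gpx1 673, all called Present. The probe set of Cbr2 read 141 and was called Absent. There was no oil array on the older chip.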
